A study of Caenorhabditis elegans with 7 samples.

Results

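The long 3′ UTRs described here are the autosomal entries of 600 bases or more in the 3′ UTR annotation that the reads were counted on. Each distinct stretch of a strand was taken once. They number 869, in 681 genes, of 38377 distinct entries in all. They are set against 15222 distinct autosomal entries of over 100 and under 600 bases, called medium entries here. Long entries had a median length of 758 bases, with quartiles of 660 and 985, and the longest had 6473. Of them 375 had 800 bases or more, 210 had 1000 or more and 67 had 1500 or more. Entries of isoforms overlap and repeat each other's reads, so values by entry rest on 716 long and 13067 medium entries that do not overlap. In each overlap the entry with the most reads was kept, which left out 150 long entries, and 3 more, with no read, had no gene identifier. Of the 716, 479 averaged 20 or more reads and 237 fewer, 100 of them with no read in any library.

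The 3′ UTR is the part of an mRNA between the stop codon and the poly(A) tail. It carries the binding sites of miRNAs and of RNA-binding proteins, which set how long the mRNA lasts, where it goes and how much protein it gives. Worm 3′ UTRs are short beside those of mammals, and the long ones hold room for many such sites. A gene can also end its mRNA at several places, so that a proximal site gives a short and a distal site a long 3′ UTR.

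The libraries came from whole Caenorhabditis elegans larvae at the fourth larval stage (L4). In SLAM-ITseq, cells with the enzyme uracil phosphoribosyltransferase build fed 4-thiouracil into RNA, and alkylation with iodoacetamide makes these sites read as C in place of T. Reads with such a mismatch are called T>C reads here. The hypodermal group is 3 libraries of strain BN1190, with FLP recombinase under the dpy-7 promoter, which is active in the hypodermis, the tissue that secretes the cuticle. The control group is 4 libraries of strain BN1158, which has no FLP. Further alleles of either strain are not given in the labels. Both strains got 4-thiouracil in the same way, after 28 h of growth at 20 °C, for 17 h, on 3 plates per library with many larvae pooled. All tissues enter a library, so fewer cells of a type and less RNA per cell cannot be told apart.

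Reads in entries that do not overlap numbered between 18865542 and 61457951 in hypodermal and between 5020894 and 51590761 in control libraries. Control replicate 2 was the shallowest and stood apart. T>C reads made up 4.59% of its reads over all entries, against 2.63% to 2.78% in the other controls and 3.35% to 3.76% in the hypodermal libraries. All 19 markers of tissues had reads in every library, given in CPM, which are reads scaled to the TMM library size and not divided by length. The 10 hypodermal markers summed to between 6106 and 7763 CPM in hypodermal and between 4709 and 7333 CPM in control libraries. In each of the 10 the groups overlapped, with dpy-13 at 2675 to 3829 CPM in hypodermal and 2074 to 3457 CPM in control libraries and col-19 at 272 to 582 CPM in hypodermal and 402 to 1203 CPM in control libraries. Of 9 markers of other tissues, myo-3 of body wall muscle (204 to 245 CPM in hypodermal, 172 to 199 CPM in control libraries) and rab-3 of neurons (30.7 to 39.3 CPM in hypodermal, 18.5 to 30.3 CPM in control libraries) were higher in every hypodermal library. The germline marker pgl-1 was lower in every one (115.7 to 150 CPM in hypodermal, 152 to 346 CPM in control libraries). The other 6 overlapped, among them unc-54 of muscle with 2928 to 3014 CPM in hypodermal and 1016 to 9045 CPM in control libraries and vit-6 of the intestine with 574 to 888 CPM in hypodermal and 832 to 1858 CPM in control libraries. The part of tissue makeup in the results was not tested. The labels give replicates as separate samples and say nothing of separate cultures, so part of the spread behind each p-value may be technical. Intervals and limits cover counting error only.

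Not all of these entries are 3′ UTRs in Ensembl release 115, the annotation used to check them. Coding transcripts held 520 (59.8%), pseudogenes 177 (20.4%) and non-coding transcripts 131 (15.1%), while the transcripts of 41 (4.72%) were not in that annotation. The entries of coding transcripts took 92.3% of the long reads, non-coding transcripts 3.25% and pseudogenes 0.261%. At least 50% of the bases were annotated as 3′ UTR in 517 entries, which held 87.6% of the long reads. Of 445 entries that began where an annotated 3′ UTR does, 400 had an annotated length of 600 bases or more. The annotated length was the same in 154, longer in 195 and shorter in 96.

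Some of the rest is coding sequence under a 3′ UTR label. Coding bases made up 50% or more of 77 entries, of which 71 were kept. These 71 were poor in T, with a median T content of 27.1%, against 36.3% over all long entries. They took 2.30%, 3.30% and 3.75% of the long reads in hypodermal replicates 1 to 3, against 2.59%, 10.98%, 3.22% and 3.59% in control replicates 1 to 4. Control replicate 2 was high and the other 6 libraries lay close together. Of all 869, 71 overlapped an exon of another gene on the same strand and 134 an exon on the opposite strand, and these remain uncertain. These sets can share entries with each other and with the 77. Reads of a gene and of an antisense partner were not told apart here, since no source used here states strand in the counting.

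The long entries lay on all 5 autosomes, with 172 on chromosome I, 146 on II, 167 on III, 176 on IV and 208 on V. On chromosome V 35.6% were of coding transcripts, against 55.5% to 73.7% on the other 4. Chromosome III held 25.2% of the long reads and II 13.9%. Reads were concentrated in few entries, since the 10 most read held 23.5% and the 50 most read 51.98% of all long reads. Per library, between 531 and 568 of the 716 entries had a read in the hypodermal and between 466 and 563 in the control group.

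Genes with long 3′ UTRs were unevenly spread over gene groups. Of 10667 autosomal genes with an average of 20 or more reads in an entry, 463 (4.34%) had a long one. Among heterochronic genes and known miRNA targets, which time larval development, it was 10 of 16 (62.5%). These include lin-41, a TRIM protein gene repressed by the let-7 miRNA, and lin-42, the worm Period gene. The list holds genes known for control through their 3′ UTRs, so its share is not independent of how it was chosen. RNA-binding and translation control genes had 21 of 81 (25.9%) and germline mRNAs under 3′ UTR control 8 of 33 (24.2%). Kinases and signalling genes had 15 of 65 (23.1%), neuron and synapse genes 8 of 37 (21.6%), muscle genes 5 of 29 (17.2%) and epidermal genes 5 of 32 (15.6%). Transcription factors had 19 of 200 (9.5%) and chromatin genes 8 of 114 (7.02%).

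At the other end stood groups with large output of short mRNAs. Of the numbered cuticle collagens 0 of 81 had a long entry, of ribosomal protein genes 0 of 76 and of major sperm protein genes 0 of 25. The respiratory chain had 1 of 61, ucr-1, a core subunit of the cytochrome bc1 complex. The most read entry of a gene had a median length of 667 bases among the heterochronic genes and 135 bases over all autosomal genes measured. It was 59 bases for the numbered collagens, 68.5 for ribosomal proteins and 35 for major sperm proteins. These are counts of annotated genes with reads, and no test was run on them. The lists do not hold every gene of a role, and mlc-3, cey-1, ifet-1, let-526 and crh-2, described below, are in none. An entry that contains a shorter one holds all of its reads, so the longer of nested entries ranks first by reads. The median lengths above thus follow the annotation, and reads of a long entry need not reach its far end. Of the 88 long entries of these lists, 42 contain a shorter tested entry, and in 5 of the 42, those of ucr-1, unc-43, ain-2, lin-66 and sax-7, 10% or less of the reads lay beyond it. For ucr-1 it was 97 of 87803 reads (0.110%), beyond a shorter entry of 263 bases.

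**Figure D1:**
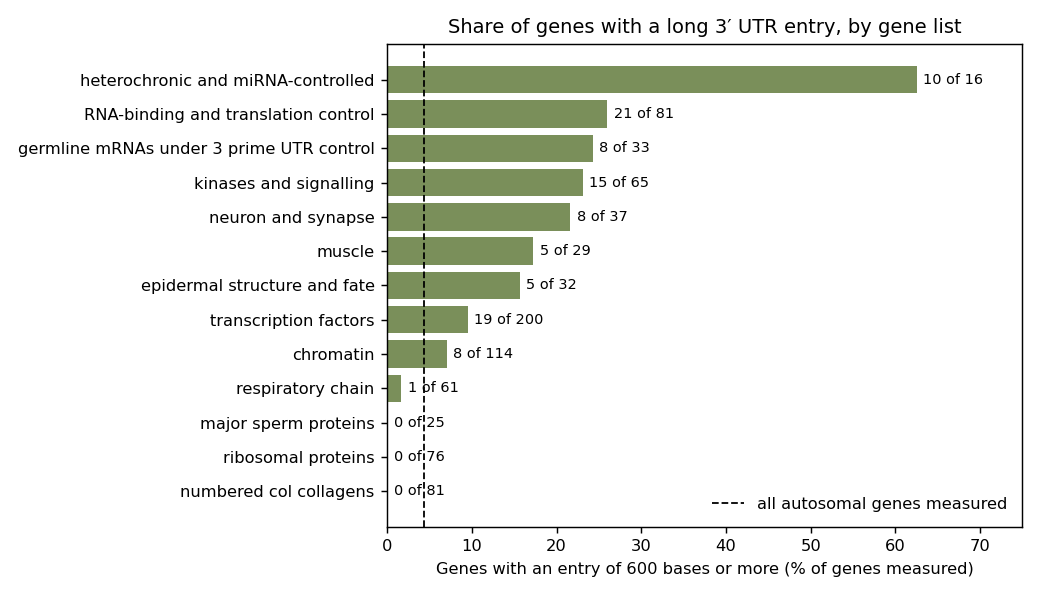
Percent of measured autosomal genes in each list that have a 3′ UTR entry of 600 bases or more (horizontal axis), with counts beside the bars. The dashed line marks the 4.34% of all autosomal genes measured. The heterochronic list stands at 62.5% and the collagen, ribosomal and sperm lists at 0.

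The most read long entry belonged to unc-15, which encodes paramyosin, the core of muscle thick filaments (WBGene00006754, WBcel235 chromosome I, 7376615 to 7377294, minus strand, 680 bases, annotated 3′ UTR). It had 2004, 2746 and 2517 CPM in hypodermal replicates 1 to 3, against 2328, 1471, 2633 and 2384 CPM in control replicates 1 to 4. The groups overlapped, with control replicate 2 lowest and hypodermal replicate 2 highest. Next came mlc-3, an essential myosin light chain gene (chromosome III, 5565575 to 5567325, plus strand, 1751 bases), with 1608, 1861 and 1621 CPM in hypodermal replicates 1 to 3, against 1413, 1525, 1713 and 1474 CPM in control replicates 1 to 4. Of that entry 34.8% is annotated 3′ UTR and 13.02% is coding. The calmodulin gene cmd-1 (chromosome V, 1157193 to 1158174, plus strand, 982 bases) had 1278, 1526 and 1548 CPM in hypodermal replicates 1 to 3, against 1003, 1005, 1335 and 1271 CPM in control replicates 1 to 4. The group ranges of mlc-3 and cmd-1 overlapped too.

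The fourth entry by reads was W06H8.6 (chromosome V, 6221249 to 6224044, minus strand, 2796 bases), which overlaps an exon of another gene. Its values were 783, 1204 and 1228 CPM in the hypodermal libraries, against 689.7, 1199, 1929 and 1325 CPM in the controls. The cold-shock domain RNA-binding protein gene cey-1 (chromosome II, 11039348 to 11040022, minus strand) had 589.9, 841 and 851 CPM in the hypodermal libraries, against 661, 727, 1549 and 783 CPM in the controls. For larp-1, a La-related RNA-binding protein gene (chromosome III, 5008933 to 5010104, minus strand), they were 517, 581 and 546 CPM in the hypodermal libraries, against 412, 245, 1499.7 and 428 CPM in the controls. In both genes control replicate 3 was far above every other library, and larp-1 also overlaps an exon of another gene. The hnRNP gene sqd-1 (chromosome IV, 6325436 to 6326421, plus strand) had 563, 443 and 492 CPM in the hypodermal libraries, against 511, 495, 764 and 592 CPM in the controls. In edgeR's quasi-likelihood test none of these 7 passed, with adjusted p of 0.999 each, and their log2 fold changes lay between -0.29 for cey-1 and 0.33 for cmd-1.

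**Figure D2:**
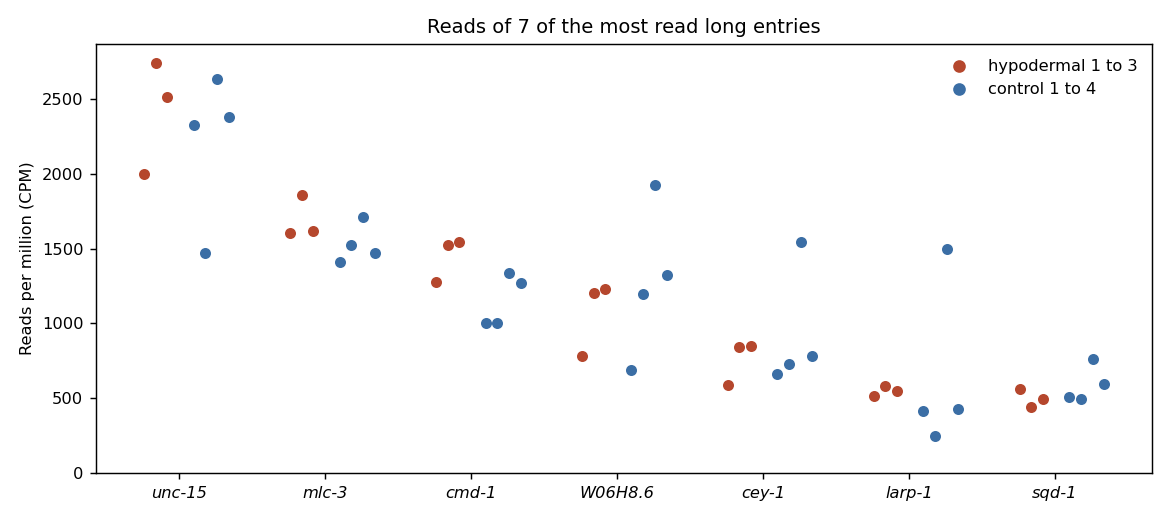
Reads (CPM, vertical axis) of 7 of the most read long entries, one point per library, hypodermal libraries left and control libraries right of each gene. Ranges of the groups overlap in all 7, and control replicate 3 stands at 1549 CPM in cey-1 and 1499.7 CPM in larp-1.

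Did long 3′ UTRs as a class take more or fewer reads in the hypodermal strain? Long entries held 7.17%, 7.51% and 7.55% of the reads in long and medium entries together in hypodermal replicates 1 to 3, against 7.25%, 5.85%, 8.67% and 7.35% in control replicates 1 to 4. The hypodermal values lay inside the control range. The difference of 0.13 percentage points (7.41% ± 0.209 against 7.28% ± 1.15, SD, n = 3 and 4) was smaller than the spread of the controls (two-sided exact permutation test, p = 0.743, Benjamini-Hochberg adjusted p = 0.849 over 8 library tests). The smallest p that 35 splits allow is 0.0286. Without control replicate 2 the difference was -0.35 points (exact p = 0.8).

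Covered Ts per read, which count the T positions a read spans in an entry, were close too. Long entries had 27.1, 24.2 and 23.8 in hypodermal replicates 1 to 3, against 27.6, 20.1, 24.7 and 25.1 in control replicates 1 to 4. The groups overlapped, with replicate 1 of each strain at the top and control replicate 2 lowest. Means were 25.0 ± 1.78 in hypodermal and 24.4 ± 3.13 in control libraries (exact permutation p = 0.886, adjusted p = 0.886). Without control replicate 2 the difference was -0.78 and without hypodermal replicate 1 it was -0.37.

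T>C reads in long entries made up 3.35%, 3.29% and 3.35% of reads in hypodermal replicates 1 to 3, against 2.77%, 4.13%, 2.72% and 2.53% in control replicates 1 to 4. Control replicate 2 lay above the hypodermal libraries (95% Wilson interval 4.02% to 4.23%) and the other 3 controls below them. The means of 3.33% ± 0.0346 in hypodermal and 3.04% ± 0.734 in control libraries (SD, n = 3 and 4) differed by 0.29 points, within the spread of the controls (two-sided exact permutation p = 0.629, adjusted p = 0.838). Without control replicate 2 the difference was 0.66 points, with an exact p of 0.1, the smallest that 20 splits allow in a two-sided test. Between the 2 libraries whose headers name no flow cell it was 0.57 points, and among the 5 that name one 0.20 points.

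Within a library, reads of long entries were set against those of medium entries. The medium entries had 3.37%, 3.60% and 3.76% T>C reads in hypodermal replicates 1 to 3, against 2.62%, 4.57%, 2.75% and 2.58% in control replicates 1 to 4. The long entries were thus lower in 6 of 7 libraries and higher in control replicate 1. The mean log2 odds ratio, long over medium, was -0.06 (two-sided exact sign-flip test over 7 libraries, p = 0.141, adjusted p = 0.375). Leaving out control replicate 1 gave -0.09 (exact p = 0.0312), and leaving out the 10 most read long entries -0.21, with exact p = 0.0156, the smallest that sign flips over 7 libraries allow. Leaving out control replicate 2 gave -0.05 (exact p = 0.281). The median over entries with 50 or more reads in every library gave 0.12 (exact p = 0.484). Its sign differs from that of the pooled reads, though neither value had an exact p under 0.05.

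Per covered T, conversions were fewer in long entries in 6 of 7 libraries, by a mean log2 ratio of -0.07 (exact sign-flip p = 0.0312, adjusted p = 0.125). Long reads also covered more Ts in 6 of 7 libraries, by 0.06 on the log2 scale (exact p = 0.0312, adjusted p = 0.125). Neither passed the adjusted threshold of 0.05. Without control replicate 2 they were -0.06 (exact p = 0.0625) and 0.07 (exact p = 0.0312). Set against medium entries of 300 bases or more alone, both turned round, to 0.06 per covered T (exact p = 0.0469) and -0.05 in covered Ts (exact p = 0.0156). Among coding transcripts alone they were -0.04 (exact p = 0.25) and 0.03 (exact p = 0.109). Long 3′ UTRs of coding transcripts had a median T content of 39.3%, against 41.5% in the medium ones.

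The contrast of long over medium entries was -0.10 ± 0.0854 in hypodermal and -0.03 ± 0.0979 in control libraries on the log2 odds scale (SD, n = 3 and 4). The strain difference of -0.08 was within the spread of the libraries (two-sided exact permutation p = 0.314, adjusted p = 0.629), and it was -0.12 without control replicate 2 (exact p = 0.3). By length, entries from 600 to under 800 bases carried 3.26% ± 0.0511 T>C reads in hypodermal and 3.06% ± 0.631 in control libraries. Those from 800 to under 1000 bases carried 3.09% ± 0.114 and 2.82% ± 0.911, and those from 1000 to under 1500 bases 2.91% ± 0.0916 and 2.72% ± 0.838, in the same order. The 60 entries of 1500 bases or more stood higher, at 5.05% ± 0.587 in hypodermal and 3.97% ± 0.804 in control libraries. Without mlc-3 alone the other 59 had 2.79% ± 0.228 and 2.30% ± 1.27.

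**Figure D3:**
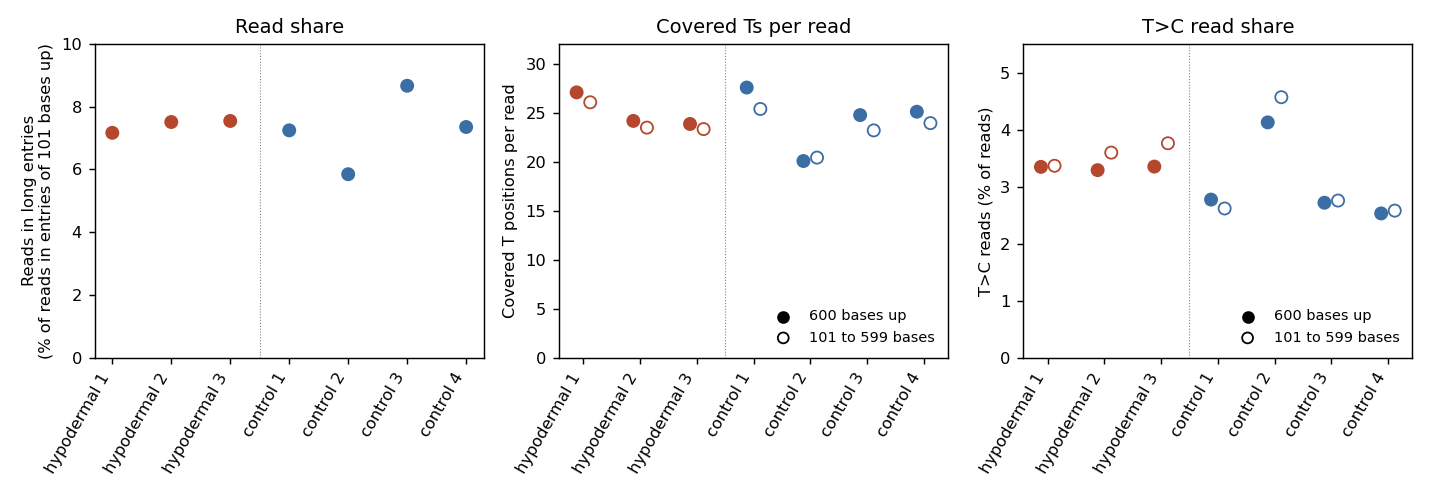
Each library's share of reads in long entries (left), covered T positions per read (middle) and T>C reads in percent of reads (right), hypodermal libraries left of control libraries. Filled points are entries of 600 bases or more and open points medium entries. Control replicate 2 has the lowest read share (5.85%) and the highest T>C share (4.13% in long entries).

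Single long entries differed far more in T>C than the classes did. Among the 61 entries with 500 or more reads in every library, the highest mean share belonged to mlc-3. It had 9.05%, 7.20% and 7.84% in hypodermal replicates 1 to 3, against 7.61%, 5.94%, 7.45% and 5.70% in control replicates 1 to 4, and its groups overlapped. The gene goa-1, for the G protein alpha subunit of the Go class (chromosome I, 7525856 to 7526703, plus strand, 848 bases), had 5.67%, 7.90% and 8.27% in the hypodermal libraries, against 1.14%, 13.8%, 4.87% and 5.13% in the controls. For sqd-1 the shares were 4.66%, 6.10% and 5.57% in the hypodermal libraries, against 4.99%, 13.3%, 4.88% and 4.11% in the controls. The DEAD-box helicase gene vbh-1 (chromosome I, 3158493 to 3159763, minus strand, overlapping an exon of another gene) had 3.67%, 7.99% and 8.41% in the hypodermal libraries, against 1.46%, 13.8%, 4.08% and 3.25% in the controls. In goa-1, sqd-1 and vbh-1 control replicate 2 was above every other library.

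The lowest shares all belonged to entries made mostly of coding sequence. F55F8.2 (937 bases, 93.7% coding, T content 24.9%) had 0.805%, 1.57% and 0.307% in hypodermal replicates 1 to 3, against 0.0919%, 0.226%, 0% and 0.767% in control replicates 1 to 4. The cyclin L gene cyl-1 (723 bases, all coding, T content 20.9%) had 1.20%, 1.47% and 0.541% in the hypodermal libraries, against 0.0513%, 1.12%, 0% and 0.694% in the controls. Values of K07B1.7 (82.2% coding) were 1.64%, 0.501% and 2.60% in the hypodermal libraries, against 0.790%, 0.0909%, 0% and 1.00% in the controls. The replication factor C gene rfc-1 (99.1% coding) had 0.872%, 1.14% and 0.620% in the hypodermal libraries, against 2.35%, 0.538%, 0% and 1.40% in the controls. All 4 were listed at 0 in control replicate 3, where read numbers of 1406, 1207, 884 and 1151 allow shares of up to 0.213%, 0.249%, 0.339% and 0.261%. All 4 also had their highest CPM in control replicate 2, with 415, 375, 257 and 304 CPM. Among annotated 3′ UTRs the lowest mean share was that of gld-2, a cytoplasmic poly(A) polymerase gene, with 2.23%, 1.45% and 1.16% in the hypodermal libraries, against 0.495%, 0.907%, 2.16% and 0.331% in the controls.

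**Figure D4:**
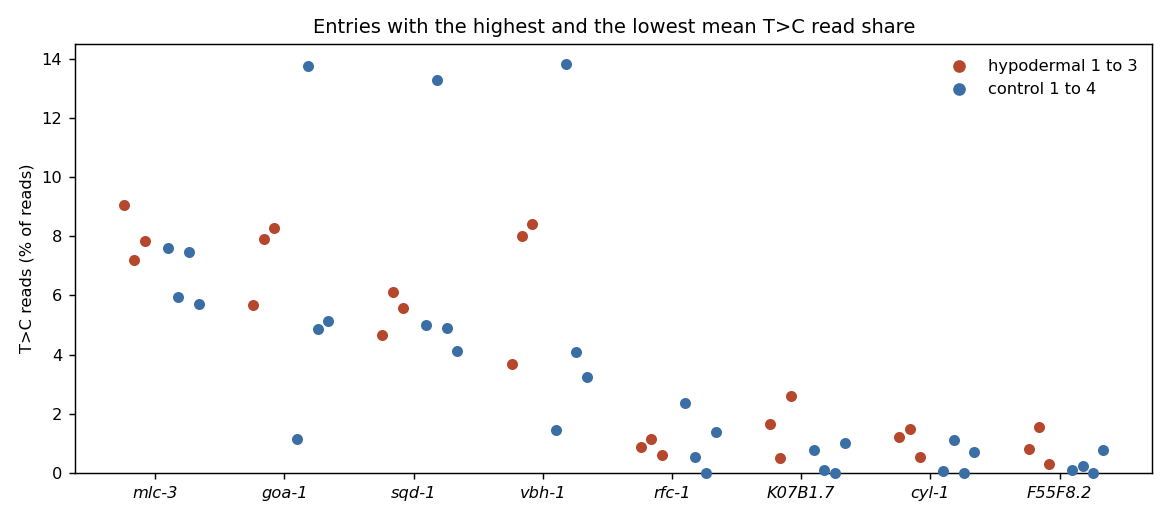
T>C reads in percent of reads (vertical axis) per library for the 4 long entries with the highest and the 4 with the lowest mean share among those with 500 or more reads in every library, hypodermal libraries left and control libraries right of each gene. Control replicate 2 reaches 13.8% in goa-1 and vbh-1 and 13.3% in sqd-1.

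Was any long 3′ UTR labelled more in the hypodermal strain? None passed edgeR's quasi-likelihood F-test on pairs of T>C and other reads after Benjamini-Hochberg adjustment over 10091 entries, 0 of 397 long ones in either direction. Over all entries tested it was also 0% in both directions. At an unadjusted p under 0.05, 12 long entries (3.02%) were higher and 1 (0.252%) lower, beside 2.75% and 0.456% of all entries. Groups did not overlap, with the hypodermal libraries higher, in 20 long entries (5.04%), beside 5.38% of all, and with them lower in 0, beside 0.347%. Limma on log2 odds called 0 as well. At its unadjusted p under 0.05, 6 were higher (1.51%) and 0 lower (0%), beside 2.42% and 1.50% of all. As a median the log2 odds ratio was 0.46 over the long entries, 0.56 over the medium ones and 0.54 over all. Leaving out each library in turn moved the number higher at an unadjusted p under 0.05 between 4 (without hypodermal replicate 1) and 33 (without control replicate 2). The 4 were 1.06% of 378 long entries, beside 1.77% of all. The 33 were 8.35% of 395 long entries, beside 6.87% of all 9987 entries tested without that library. Of all entries 18 then passed the adjusted threshold as higher, and 0 of these were long. Estimates above 0 came from 285 of the 397 (71.8%), beside 69.8% of all.

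The smallest p was that of an entry of let-526, an ARID protein gene of the SWI/SNF chromatin remodelling complex. Of the 5 kept entries of this gene it is the one 641 bases long (chromosome I, 5304441 to 5305081, minus strand), of a non-coding transcript and overlapping coding sequence throughout. It had 4.02%, 0.155% and 0.624% in hypodermal replicates 1 to 3, against 0%, 0%, 0% and 0% in control replicates 1 to 4. Pooled, 45 of 2552 hypodermal reads (1.76%) were T>C reads, against 0 of 1715 control reads, which allows up to 0.175%. The pooled hypodermal share was 10.1 times this limit. Of the 45, 38 came from hypodermal replicate 1, and without it 7 of 1606 reads (0.436%) were T>C reads, 2.49 times the limit. Both ratios leave out the counting error of the hypodermal reads and the spread between libraries, so neither is a lower bound. The entry passed the filter of 10 or more T>C reads through the hypodermal libraries alone. In edgeR's test the unadjusted p was 0.00602 and the adjusted p 1. The 3′ UTR of the same gene, 867 bases long, had 1.75%, 2.95% and 1.92% in the hypodermal libraries, against 1.55%, 3.19%, 0.657% and 1.41% in the controls, with overlapping groups. Only 0.132% of its pooled reads lay beyond a nested entry of 766 bases.

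Next in order was mdt-15, a Mediator subunit gene for lipid metabolism (WBGene00007016, chromosome III, 5828603 to 5829733, minus strand, 1131 bases, annotated 3′ UTR). It had 3.50%, 2.64% and 2.85% in hypodermal replicates 1 to 3, against 1.46%, 0.700%, 0.224% and 0.810% in control replicates 1 to 4. Every hypodermal library lay above every control, and the log2 odds ratio was 2.01 ± 0.79 SE (edgeR unadjusted p = 0.0106, adjusted p = 1). The chaperonin subunit gene cct-8 (chromosome IV, 1087095 to 1087811, minus strand) had 3.82%, 6.01% and 5.15% in the hypodermal libraries, against 0.691%, 2.86%, 0.331% and 2.67% in the controls. Its groups did not overlap either, and its log2 odds ratio was 2.15 ± 0.85 SE.

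Y105E8A.14 (chromosome I, 14465380 to 14466241, minus strand), which overlaps an exon of another gene, had 3.07%, 1.95% and 1.99% in the hypodermal libraries, against 0.447%, 0.862%, 0.154% and 0.589% in the controls, again without overlap of the groups. For crh-2, of the CREB family of transcription factors (chromosome II, 5179034 to 5179677, minus strand), the shares were 3.57%, 4.25% and 3.09% in the hypodermal libraries, against 0.316%, 10.6%, 0% and 0.541% in the controls. There control replicate 2, with 189 reads, was above all others. Their log2 odds ratios were 2.38 ± 1.01 SE and 2.40 ± 1.02 SE (edgeR adjusted p = 1 for both). Without control replicate 2 that of crh-2 was 3.58 (edgeR unadjusted p = 0.000342, adjusted p = 0.110).

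On the lower side, F35E12.9 (1517 bases, 53.6% coding) had 0%, 0% and 0% in the hypodermal libraries, against 13.4%, 3.64%, 0% and 3.03% in the controls. Pooled, 0 of 422 hypodermal reads were T>C reads, which allows up to 0.711%. In the controls 33 of 459 reads (7.19%) were T>C reads, 10.1 times this limit. Of the 33, 29 came from control replicate 1, and without it 4 of 243 control reads (1.65%) were T>C reads, 2.32 times the limit. Both ratios leave out the counting error of the control reads, so neither is a lower bound. The entry passed the filter on T>C reads through the control libraries alone. The chondroitin polymerizing factor gene mig-22 (600 bases) had 3.40%, 0% and 0.231% in the hypodermal libraries, against 0.740%, 2.90%, 6.47% and 3.10% in the controls. All 12928 of its reads lay within a nested entry of 352 bases, so these shares are those of the shorter part. T09B4.5 had 8.97%, 0% and 0% in the hypodermal libraries, against 7.31%, 0%, 7.41% and 4.14% in the controls, from as few as 16 reads. In lip-1, a MAP kinase phosphatase gene whose mRNA is repressed by FBF proteins in the germline, the counts were 0 of 68, 0 of 6 and 0 of 15 reads in hypodermal replicates 1 to 3, against 0 of 133, 0 of 1, 6 of 16 and 4 of 18 reads in control replicates 1 to 4. All 10 T>C reads of lip-1 came from 34 reads of control replicates 3 and 4, and control replicate 1, with most reads, was at 0. An entry of the ubiquitin ligase gene ubr-4 that is all coding sequence (1445 bases) had 0.239%, 0% and 0.786% in the hypodermal libraries, against 0.767%, 1.54%, 0% and 2.88% in the controls. Of these only F35E12.9 had an unadjusted p under 0.05, of 0.0457, and all had an adjusted p of 1.

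The authors' deposited table of picked entries holds 198, among them 11 of the long ones and 118 of the medium ones. These numbers equal 2.77% of the long and 2.11% of the medium entries tested here, though not all 11 were themselves tested. Over all lengths and chromosomes, the 198 stand beside 10091 entries tested here. The authors' threshold was looser than the 0.05 used here. The 11 have adjusted p from 0.0209 to 0.0982 in that table, and only Y105E8A.14 is under 0.05. In the authors' deposited table, Y105E8A.14 had an adjusted p of 0.0209, with converted Ts at 0.0855% of covered Ts in the hypodermal and 0.0183% in the control strain. For mdt-15 the authors' deposited table gives an adjusted p of 0.0647, with 0.115% and 0.0357% in the same order. The other 9 in the authors' deposited table are ccch-1, lin-23, C02B10.3, Y49G5B.1, F38A1.8, unc-103, math-33, xpo-1 and crh-2. The entries of lin-23, math-33 and crh-2 in that table were not kept here. That of crh-2, with 637 bases, is not the crh-2 entry described above. The fit on read pairs gave log2 odds ratios above 0 for the 8 of the 11 that were kept and tested, from 1.13 for xpo-1 to 4.13 for unc-103. The table and this fit use the same libraries.

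No long entry passed the test for total reads between the strains either. In edgeR's quasi-likelihood F-test 0 of 479 long entries were higher and 0 lower, beside 0% and 0.0152% of the 13200 tested. At an unadjusted p under 0.05, 1 was higher (0.209%) and 2 lower (0.418%), beside 0.689% and 1.57% of all. Without control replicate 1 these were 4 (0.839%) and 14 (2.94%), beside 1.93% and 2.75% of all, and without control replicate 2 they were 4 (0.823%) and 13 (2.67%), beside 1.50% and 2.42%. Leaving out each of the other 5 libraries gave 0 to 5 higher (0% to 1.04%) and 0 to 4 lower (0% to 0.821%). Over all entries these shares were 0.317% to 1.27% and 0.905% to 1.88%. DESeq2 called 0 long entries too, while over all entries it called 9 higher and 19 lower, against 0 and 2 by edgeR. At an unadjusted p under 0.05 DESeq2 had 1 long entry higher (0.209%) and 8 lower (1.67%), beside 0.788% and 2.54% of all. Groups did not overlap in 10 long entries with the hypodermal libraries higher (2.09%) and in 5 with them lower (1.04%), beside 2.66% and 2.23% of all. Estimates above 0 came from 220 long entries (45.9%), beside 49.1% of all, and the median log2 fold change was -0.03 over the long and -0.01 over all entries.

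On the higher side, the smallest p belonged to rips-1 (chromosome V, 3774435 to 3775546, plus strand, 1112 bases), of which 53.1% overlaps an exon on the opposite strand. It had 408, 426 and 396 CPM in hypodermal replicates 1 to 3, against 261, 298, 274 and 258 CPM in control replicates 1 to 4. No hypodermal library overlapped the controls, and the log2 fold change was 0.59 ± 0.24 SE (edgeR unadjusted p = 0.0295, adjusted p = 0.999). The tyrosine phosphatase gene ptpn-22 had 63.6, 47.7 and 66.9 CPM in the hypodermal libraries, against 43.4, 46.3, 30.5 and 36.2 CPM in the controls. The hnRNP U gene hrpu-2 had 32.8, 28.5 and 21.9 CPM in the hypodermal libraries, against 10.00, 8.42, 7.63 and 29.01 CPM in the controls, where control replicate 4 lay among the hypodermal libraries. The mevalonate kinase gene mvk-1 had 144, 139.9 and 125 CPM in the hypodermal libraries, against 91.3, 78.2, 101.3 and 113 CPM in the controls, without overlap. For lin-42, 939 bases long (chromosome II, 1233236 to 1234174, minus strand), values were 125, 153 and 133 CPM in the hypodermal libraries, against 119.8, 55.9, 36.2 and 109 CPM in the controls. Control replicates 2 and 3 were low there, and replicates 1 and 4 lay just below the hypodermal range. Its log2 fold change was 0.77 ± 0.40 SE (edgeR adjusted p = 0.999).

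On the lower side, ifet-1, for an eIF4E-binding translational repressor (chromosome III, 4471407 to 4472434, minus strand, 1028 bases), had 84.3, 77.5 and 93.2 CPM in hypodermal replicates 1 to 3, against 126, 158, 133 and 107 CPM in control replicates 1 to 4. Every hypodermal library was below every control, with a log2 fold change of -0.62 ± 0.27 SE (edgeR unadjusted p = 0.0393, adjusted p = 0.999). The SR protein gene rsp-7, whose entry is 3′ UTR in one transcript while 76.8% of it is coding in another, had 121, 131 and 85.05 CPM in the hypodermal libraries, against 137, 185, 246 and 136 CPM in the controls. The diphthamide synthesis gene dph-7 had 0.672, 0.867 and 0.895 CPM in the hypodermal libraries, against 0.949, 3.51, 12.3 and 2.26 CPM in the controls, with 0% of the entry annotated as 3′ UTR. K07B1.7 had 37.4, 71.2 and 81.2 CPM in the hypodermal libraries, against 44.5, 257, 107 and 108 CPM in the controls. Its log2 fold change was -1.03, and -0.43 without control replicate 2 (edgeR unadjusted p = 0.0729 and 0.2998). B0041.11 was at or under 4.91 CPM in every library. All of these had an adjusted p of 0.999.

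Nested entries let reads be placed within a long 3′ UTR. In 152 tested pairs a long entry contained a shorter one with the same stop codon side, so that reads in the shorter part count as proximal and the rest as distal. The pairs came from 143 genes, and 16 of them belong to 7 genes, in several of which pairs repeat each other's reads. The median long entry of a pair had 815.5 bases and the shorter one 340.5. Distal reads made up a median of 83.1% of a pair's reads, with quartiles of 22.5% and 98.2%. They were 90% or more in 67 pairs (44.1%) and 10% or less in 21 (13.8%). Every tested pair, of any length, needed 10 or more distal reads in all. Pairs with almost no distal reads are therefore left out, such as mig-22 with 0 distal and 12928 proximal reads. With the most read pair of each gene alone the median was 79.3%, with 62 of 143 (43.4%) at 90% or more. In 540 autosomal pairs whose longer entry had under 600 bases the median was 18.5%, with 91 pairs (16.9%) at 90% or more and 221 (40.9%) at 10% or less. The 2 classes differ in the lengths of both parts (medians of 240 and 90.5 bases in the shorter class), and no test was run between them.

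**Figure D5:**
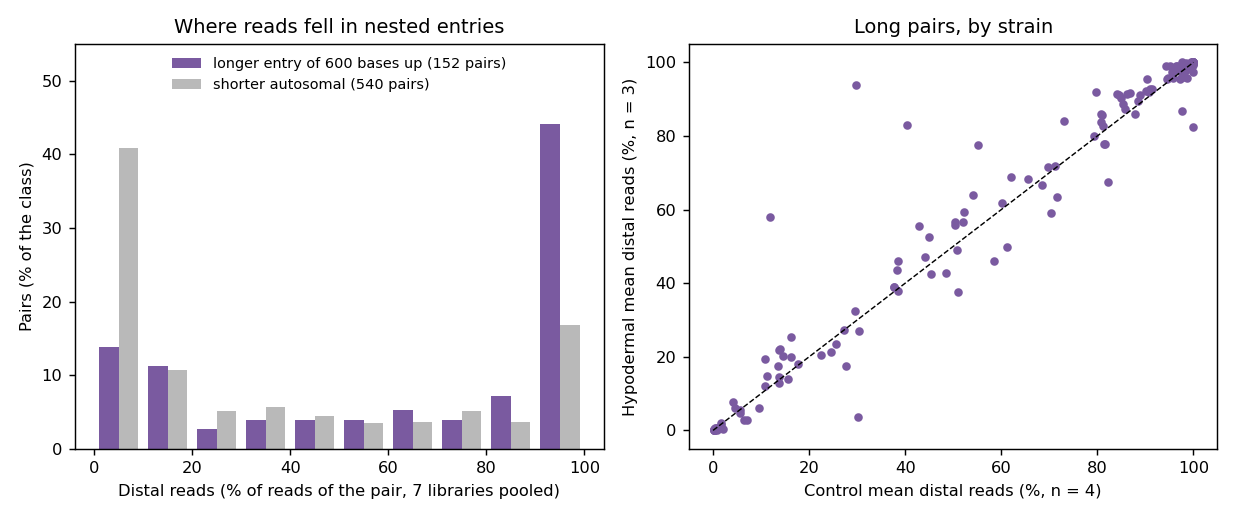
Left, the percent of pairs (vertical axis) by distal reads in percent of the reads of a pair (horizontal axis, steps of 10), for 152 long pairs and 540 shorter autosomal pairs. Right, mean distal percent of each long pair in hypodermal (vertical) against control libraries (horizontal), with the line of equal values. Long pairs gather at 90% or more (44.1%) and the shorter class at 10% or less (40.9%).

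The calmodulin gene cmd-1 had the most distal reads, 179218 beyond its 414-base proximal entry and 63941 within it. Distal reads made up 79.3%, 66.3% and 69.1% in hypodermal replicates 1 to 3, against 75.98%, 67.6%, 67.8% and 67.6% in control replicates 1 to 4. Replicate 1 of each strain was high and the others lay close together. In larp-1 nearly all reads were distal, 99.8%, 99.6% and 99.9% in hypodermal replicates 1 to 3, against 99.4%, 99.04%, 100.00% and 99.9% in control replicates 1 to 4. For arf-1, an ADP-ribosylation factor gene, they made up 94.6%, 89.9% and 93.9% in hypodermal replicates 1 to 3, against 95.6%, 76.6%, 98.2% and 94.8% in control replicates 1 to 4. Control replicate 2 was low there. The G protein beta subunit gene gpb-1 had 95.1%, 90.9% and 87.1% in hypodermal replicates 1 to 3, against 92.6%, 70.4%, 85.9% and 88.8% in control replicates 1 to 4. The reverse held for unc-15, whose reads lay mostly in its proximal 408 bases. Distal reads made up 16.1%, 14.04% and 13.5% in hypodermal replicates 1 to 3, against 13.2%, 16.5%, 11.2% and 14.2% in control replicates 1 to 4.

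Pooled over the 152 pairs, distal reads made up 57.6%, 52.5% and 53.2% in hypodermal replicates 1 to 3, against 54.2%, 51.2%, 52.7% and 52.7% in control replicates 1 to 4. With 1 pair a gene it was 57.8%, 53.1% and 53.7% in the hypodermal libraries, against 54.2%, 51.4%, 53.2% and 53.03% in the controls. In edgeR's quasi-likelihood F-test 0 pairs differed between the strains, beside 0% in each direction of the 818 pairs of all lengths. At an unadjusted p under 0.05, 1 long pair was higher (0.658%) and 3 lower (1.97%) in distal share, beside 1.71% and 1.34% of all. Groups did not overlap in 3 long pairs with the hypodermal libraries higher (1.97%) and in 4 with them lower (2.63%), beside 2.93% and 1.1% of all. Estimates above 0 came from 91 long pairs (59.9%), beside 63.6% of all, with medians of 0.16 on the log2 scale over the long pairs and 0.32 over all.

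Pairs with the smallest p rest on few reads of the rarer site. In rsp-1, an SR splicing factor gene, 0 of 6062, 0 of 1149 and 0 of 897 reads were proximal in hypodermal replicates 1 to 3, against 0 of 4989, 5 of 171, 21 of 377 and 8 of 1105 in control replicates 1 to 4. Pooled, 0 of 8108 hypodermal reads allow up to 0.0370%. The control share was 34 of 6642 reads (0.512%), 13.8 times this limit. Without control replicate 3 it was 13 of 6265 control reads (0.208%), 5.61 times the limit. Both ratios leave out the counting error of the control reads, so neither is a lower bound. Control replicate 1, with most control reads, was at 0 like the hypodermal libraries. In imph-1, an IMP-type RNA-binding protein gene, proximal reads numbered 0 of 5905, 0 of 2254 and 1 of 2042 in hypodermal replicates 1 to 3, against 96 of 6270, 0 of 246, 0 of 1801 and 9 of 3061 in control replicates 1 to 4. Control replicate 1 held 96 of the 105 control reads, and without it 9 of 5108 remained, with the log2 odds ratio of distal reads at 2.78 in place of 4.13. The homeodomain gene zfh-2 had 4 of 859, 1 of 262 and 2 of 337 proximal reads in hypodermal replicates 1 to 3, against 0 of 1826 reads in the control libraries, of which control replicate 1 held 1273. In nkb-1, for the beta subunit of the sodium-potassium ATPase, they numbered 45 of 17321, 16 of 6007 and 15 of 4400 in hypodermal replicates 1 to 3, against 0 of 11972, 0 of 425, 0 of 4116 and 8 of 4944 in control replicates 1 to 4. Unadjusted p were 0.0336, 0.0531, 0.0264 and 0.0309 in that order, and edgeR's adjusted p was 1 for all 4.

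Pooled over the 152 pairs, distal and proximal reads did not differ in T>C beyond the spread of the libraries. The pools weigh genes unequally. For example, larp-1 gave 101720 distal and 283 proximal reads, and unc-15 gave 63514 distal and 381360 proximal reads. The contrast therefore mixes genes, and it cannot tell whether the parts of a single 3′ UTR differ. Distal reads held 3.31% ± 0.231 and proximal reads 3.39% ± 0.146 in hypodermal libraries (SD, n = 3), and in control libraries it was 3.11% ± 1.26 and 3.26% ± 0.671 (n = 4). The mean log2 odds ratio, distal over proximal, was -0.09, above 0 in 2 of 7 libraries (two-sided exact sign-flip p = 0.547, adjusted p = 0.838). Without control replicate 3 it was 0.01, and without control replicate 2 it was -0.15 (exact p = 0.219). In cmd-1, distal reads carried 2.56%, 3.40% and 2.51% T>C in hypodermal replicates 1 to 3, against 2.41%, 2.31%, 3.10% and 2.29% in control replicates 1 to 4. Its proximal reads carried 1.70%, 1.42% and 1.09%, against 3.31%, 1.29%, 2.28% and 1.11%. The distal share was the higher one in every library but control replicate 1.

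By role, the heterochronic list had 10 long entries tested for labelling, of which 5 had estimates above 0 and 0 an unadjusted p under 0.05, with a median log2 odds ratio of -0.03. Over all entries tested 69.8% had estimates above 0, with a median of 0.54. The most read were lin-42 and the Ras gene let-60. T>C reads in lin-42 made up 5.16%, 5.25% and 4.00% in the hypodermal libraries, against 6.36%, 1.26%, 1.34% and 4.15% in the controls. For let-60 (chromosome IV, 11688227 to 11689045, minus strand, 819 bases) they made up 3.09%, 0.685% and 2.35% in the hypodermal libraries, against 1.24%, 1.54%, 5.26% and 1.62% in the controls. Reads of lin-41 (chromosome I, 9334812 to 9335964, minus strand, 1153 bases) came to 32.3, 22.3 and 14.2 CPM in the hypodermal libraries, against 27.4, 9.59, 152 and 25.4 CPM in the controls, where control replicate 3 was far above the rest. Its log2 fold change was -1.22 ± 0.77 SE (edgeR unadjusted p = 0.139, adjusted p = 0.999).

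By group means, germline mRNAs under 3′ UTR control had the lowest pooled T>C share of the 10 lists with long entries, 1.68% ± 0.0427 in hypodermal and 1.37% ± 0.664 in control libraries. In control replicate 3 alone the kinase list was lower, at 1.55%. The germline values were 1.68%, 1.72% and 1.64% in hypodermal replicates 1 to 3, against 0.40%, 1.91%, 1.58% and 1.58% in control replicates 1 to 4. Of the 2 germline markers, pgl-1 was lower in every hypodermal library. The other, glh-1, overlapped, with 372 to 485 CPM in hypodermal and 386 to 567 CPM in control libraries. The part of tissue makeup was not tested. Of the 8 long entries 6 had estimates above 0, with a median of 0.77, beside 69.8% and 0.54 over all entries. In gld-1, a translational repressor gene of the germline (chromosome I, 7697411 to 7698227, plus strand), reads came to 198.4, 52.5 and 48.9 CPM in the hypodermal libraries, against 197.5, 37.7, 81.00 and 59.4 CPM in the controls, with replicate 1 of each strain high. Reads of gld-2 came to 186, 345 and 355 CPM in the hypodermal libraries, against 195, 258, 309 and 252 CPM in the controls.

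RNA-binding and translation control genes had 19 long entries tested, 11 above 0, with a median of 0.12, beside 69.8% and 0.54 over all entries. Pooled T>C reads made up 2.56% ± 0.113 in hypodermal and 2.98% ± 1.25 in control libraries. The translation factor gene ifg-1 (1153 bases, overlapping an exon of another gene) had 1.82% ± 0.329 in hypodermal and 2.33% ± 2.05 in control libraries. The deadenylase gene ccr-4 (1226 bases) had 2.26% ± 0.223 in hypodermal and 2.20% ± 0.998 in control libraries. The DEAD-box helicase gene cgh-1 (942 bases) had 2.34% ± 0.708 in hypodermal and 1.74% ± 0.797 in control libraries.

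In the muscle list, which does not hold mlc-3, all 5 long entries had estimates above 0, with a median of 0.98 and 0 at an unadjusted p under 0.05. Over all entries 69.8% were above 0, with a median of 0.54. Of the 2 body wall muscle markers, myo-3 was higher in every hypodermal library. The other, unc-54, overlapped, with 2928 to 3014 CPM in hypodermal and 1016 to 9045 CPM in control libraries. The part of tissue makeup was not tested. Pooled T>C reads made up 5.48%, 4.80% and 5.29% in hypodermal replicates 1 to 3, against 4.44%, 5.35%, 4.32% and 4.26% in control replicates 1 to 4. Of these the controls other than replicate 2 lay below the hypodermal libraries. For unc-15 the shares were 5.74%, 4.71% and 5.33% in the hypodermal libraries, against 4.65%, 5.46%, 5.40% and 4.42% in the controls. The perlecan gene unc-52 (692 bases, 35.98% coding) had 1.86%, 2.83% and 2.63% in the hypodermal libraries, against 4.20%, 3.40%, 0.467% and 2.27% in the controls. The twitchin gene unc-22 (954 bases) had 5.87%, 6.81% and 5.83% in the hypodermal libraries, against 3.56%, 5.75%, 0.249% and 5.10% in the controls, and unc-89, for obscurin, 11.9%, 10.2% and 12.96% in the hypodermal libraries, against 4.00%, 18.9%, 0.870% and 7.26% in the controls. In both, control replicate 3 was lowest, and in unc-22 the groups did not overlap, with a log2 odds ratio of 1.09 ± 0.58 SE (edgeR unadjusted p = 0.0612, adjusted p = 1).

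Epidermal genes, those of the tissue with FLP, had 5 long entries, of which 2 had estimates above 0, with a median of -0.19. Over all entries it was 69.8%, with a median of 0.54. Pooled T>C reads made up 2.97% ± 0.448 in hypodermal and 3.39% ± 0.60 in control libraries. The hemidesmosome gene pat-12 (3356 bases, chromosome III, 727246 to 730601, minus strand) had 1.70%, 3.07% and 1.47% in the hypodermal libraries, against 0.542%, 0.403%, 0.170% and 1.80% in the controls. The moulting regulator gene nhr-23 (829 bases, 41.9% annotated 3′ UTR) had 3.40%, 2.96% and 1.71% in the hypodermal libraries, against 7.52%, 6.14%, 7.01% and 2.59% in the controls. The cadherin gene hmr-1 had 7.74% ± 1.87 in hypodermal and 6.77% ± 8.16 in control libraries, and lin-26, for an epidermal transcription factor, 0.745% ± 0.856 in hypodermal and 1.83% ± 3.45 in control libraries. None of the 5 had an unadjusted p under 0.05.

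Of the kinases and signalling genes 15 long entries were tested, 11 above 0, with a median of 0.61 and 1 at an unadjusted p under 0.05, that of par-3, a cell polarity gene. Over all entries 69.8% were above 0, with a median of 0.54, and 2.75% were higher and 0.456% lower at that p. The casein kinase 1 gene kin-19 (chromosome III, 4084003 to 4084789, minus strand) had 2.62%, 1.79% and 2.20% in the hypodermal libraries, against 2.45%, 2.27%, 1.65% and 1.60% in the controls. The glycogen synthase kinase 3 gene gsk-3 (chromosome I, 12824666 to 12825562, plus strand) had 2.49%, 1.34% and 2.46% in the hypodermal libraries, against 1.18%, 1.80%, 1.29% and 1.36% in the controls. Reads of gsk-3 came to 319.8, 339.6 and 257 CPM in the hypodermal libraries, against 309.99, 51.9, 1110.1 and 314 CPM in the controls, with control replicate 3 far above and control replicate 2 far below the rest.

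Among neuron and synapse genes 7 of 8 were above 0, with a median of 0.56, beside 69.8% and 0.54 over all entries. The CaM kinase II gene unc-43 had 2.07% ± 0.635 in hypodermal and 1.89% ± 0.341 in control libraries and the adhesion protein gene sax-7 1.40% ± 1.17 in hypodermal and 1.75% ± 0.797 in control libraries. Distal reads were 0.702% of the pair's reads in unc-43 and 4.66% in sax-7, so these shares come mostly from the nested shorter part. Of the 2 neuronal markers, rab-3 was higher in every hypodermal library. The other, egl-3, overlapped, with 178 to 305 CPM in hypodermal and 184 to 370 CPM in control libraries. The part of tissue makeup was not tested. Of 15 transcription factor entries tested 11 were above 0, with a median of 0.59, beside the same 69.8% and 0.54. There atf-7 had 3.26% ± 0.938 in hypodermal and 2.12% ± 0.494 in control libraries and the FOXO gene daf-16 1.74% ± 0.623 in hypodermal and 1.22% ± 0.808 in control libraries. All 8 chromatin entries were above 0, with a median of 0.62, again beside 69.8% and 0.54 over all entries. The SWI/SNF subunit gene swsn-1 had 2.91% ± 0.930 in hypodermal and 1.80% ± 0.911 in control libraries, and cbp-1, for a histone acetyltransferase, 4.88% ± 1.11 in hypodermal and 2.64% ± 2.33 in control libraries. The single respiratory chain entry, ucr-1, had 4.66% ± 0.589 in hypodermal and 4.44% ± 2.54 in control libraries, almost all of it from reads within its first 263 bases. No listed entry of these 4 groups had an unadjusted p under 0.05. The lists do not hold the chromatin gene let-526 or the transcription factor gene crh-2, described above. Those had unadjusted p of 0.00602 and 0.0191 in edgeR's test.

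The 3 longest entries with 20 or more reads on average were mostly outside annotated 3′ UTRs. The longest, of the pseudogene WBGene00014814 on chromosome II with 6473 bases, had at most 2.26 CPM in any library. The splicing reporter gene tos-1 (4558 bases, chromosome V, 9338859 to 9343416, minus strand, non-coding transcript, 2.8% annotated 3′ UTR) had 100.4, 162 and 186 CPM in the hypodermal libraries, against 99.5, 315, 120.2 and 136 CPM in the controls. Control replicate 2 was above the rest, and of the pooled reads 16.9% lay beyond a nested entry of 140 bases. The adaptor gene shc-1 (3564 bases) had at most 4.47 CPM in any library. At the limit of 600 bases itself, the most read entries just inside were vha-8 (603 bases, a vacuolar ATPase subunit gene) with 437 to 484 CPM in hypodermal and 324 to 538 CPM in control libraries, and ech-5 (602 bases) with 63.0 to 95.3 CPM in hypodermal and 56.3 to 95.9 CPM in control libraries. Just outside were the antizyme gene oaz-1 (596 bases) with 726 to 1029.5 CPM in hypodermal and 615 to 896 CPM in control libraries, and vig-1, a base shorter, with 623 to 915 CPM in hypodermal and 606 to 1338 CPM in control libraries.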

How the data were processed

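Each library's RNA was sequenced from its 3′ ends and counted on a 3′ UTR annotation with slamdunk 0.4.3, per the file headers. The authors deposited read counts, T>C read counts and counts of covered and converted Ts per entry. The deposited conversion rate is a fraction of covered Ts, and the deposited CPM column beside it, taken as a score since overlapping entries repeat reads, was used only to check mapped reads. One deposited table holds the authors' own comparison, with p-values and conversion fractions, and its 21 per-library columns were not used.

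Entries with the same chromosome, start, end and strand were taken once, and of overlapping entries the most read was kept. Coordinates are those of the files, whose headers name a WBcel235 annotation. The submitters' processing notes list ce10, with no role, and no header names the genome that reads were aligned to. Entries were checked against Ensembl release 115 of WBcel235 with bedtools 2.31.1, and 445 of the long ones began at an annotated 3′ UTR's first base there. edgeR 4.0.16 in R 4.3.3 gave quasi-likelihood F-tests, adjusted by Benjamini-Hochberg over all entries, at a threshold of 0.05. Labelling was fitted on T>C and other reads of each library, with library terms, for entries averaging 20 or more reads and with 10 or more T>C reads in all. Distal and proximal reads were fitted likewise, for pairs at least 50 bases apart. These averaged 20 or more reads and had 10 or more distal reads in all. Total reads used TMM library sizes. Library values were compared by exact permutation tests. Only the edgeR fits were tried on simulated counts, and not the permutation tests. The simulated counts varied less than these, whose common dispersion was 0.509 for labelling, 0.364 for reads and 0.584 for distal share. Recovery there does not carry over to these data. Alternatives included limma 3.58.1, DESeq2 1.42.0, other filters and leaving out each library. Python 3.11.15 was used for the other steps.

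The members and lists were chosen with earlier results of these data known. Named are the 8 most read entries (1 is not reported here), the 3 longest with 20 or more reads on average, the 5 each way with the smallest p for labelling and for reads, the 4 highest and 4 lowest T>C shares among entries with 500 or more reads in every library, the 5 pairs with most distal reads and 2 each way by p, 2 each side of 600 bases and the 2 most read of each list. The further entries gld-2 among the lowest T>C shares, the second let-526 entry, lin-41, ifg-1, ccr-4, cgh-1, unc-22, unc-89, hmr-1, lin-26 and par-3 were chosen after their values were seen. Sequences are not printed here.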

Additional observations from a re-analysis of the deposited data

Results flagged for a closer look

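In groups of 4 control libraries, 14 of 132 sets of values had 1 library far from the other 3, where chance gives about 1 in 20. The pooled T>C share of long entries was one, with control replicate 2 at 4.13%. Control replicate 2 was also far above the other controls in the T>C share of sqd-1 (13.3%), crh-2 (10.6%) and sax-7 (2.93%), and in reads of tos-1 (315 CPM). It was far below them in the T>C share of swsn-1 (0.431%) and in the distal share of arf-1 (76.6%). This is the shallowest library, and the part of its depth in these values was not tested.

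Control replicate 3 was far above the other controls in reads of cey-1 (1549 CPM) and larp-1 (1500 CPM), and in the T>C share of zfh-2 (20.2%) and let-60 (5.26%). Control replicate 4 stood apart in reads of hrpu-2 (29.0 CPM, high) and in the distal share of nkb-1 (99.8%, low). Control replicate 1 had the high distal share of cmd-1 (75.98%).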

How the results depend on the processing

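Counts of long entries called were 0 for labelling, total reads and distal share under every alternative that could be fitted. For the 24 genes named for their smallest p no fitted estimate turned round, but they were picked from these same data. The filter dropped let-526 without hypodermal replicate 1, F35E12.9 without control replicate 1 and lip-1 without control replicate 3 or 4. Those libraries held 38 of 45, 29 of 33 and together all 10 T>C reads. B0041.11 was fitted in 5 of 7 leave-one-out settings. Leaving out each library in turn gave ranges of -0.35 to 0.59 points for the strain difference in read share, -0.78 to 1.72 for covered Ts per read and 0.12 to 0.66 points for T>C reads. Read share (-0.35) and covered Ts (-0.78) turned round without control replicate 2, and covered Ts (-0.37) without hypodermal replicate 1. For long over medium entries the ranges were -0.086 to -0.043 in T>C odds, -0.087 to -0.056 per covered T, 0.044 to 0.068 in covered Ts and -0.12 to -0.04 in the strain difference. Distal over proximal ranged from -0.15 to 0.01, with 0.0098 without control replicate 3, and was -0.091 with 1 pair a gene, an alternative added after seeing the data.

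T>C odds were -0.11 with overlapping entries included, -0.21 without the 10 most read entries and 0.039 in the libraries with no flow cell in the header. As a median over entries they were 0.12. Medians here are over entries with 50 or more reads in every library. Per covered T the values were -0.10 with a flow cell, -0.00029 without one, -0.031 from 800 bases up, 0.13 as a median, 0.055 against medium entries of 300 bases or more and -0.036 among coding transcripts, the last an alternative added after seeing the data. Covered Ts gave 0.042 with a flow cell, 0.045 with every entry, 0.017 from 800 bases up, -0.010 as a median, -0.053 against medium entries of 300 bases or more and 0.033 among coding transcripts. The cause was not tested.

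Same-numbered libraries had correlations of 0.389, 0.118 and -0.0789, which does not meet the rule for a pairing, though replicate 1 of both strains had the highest and no flow cell in its header. With a replicate block the fits called 0 long entries. At an unadjusted p under 0.05, 12 (3.02%) were higher and 0 (0%) lower in labelling, beside 1.89% and 0.139% of all. In reads it was 8 (1.67%) and 3 (0.626%), beside 1.67% and 1.65% of all. In distal share it was 3 pairs (1.97%) and 2 (1.32%), beside 2.20% and 1.22% of all. Count fits on the libraries with no flow cell had 1 library a group and could not be fitted, and the median over entries was not run for read share. Depth limits T>C shares of entries with few reads.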
